A study of Cavia porcellus with 14 samples.

Results

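The positions described here are the listed cytosines with a low methylation level in the blood of newborn guinea pigs, leaving out scaffold_111. The authors' deposited table lists 6017 cytosine positions, and 1346 of them (22.4%) lay outside scaffold_111 and had a methylation level under 20%, taken as the plain mean of the levels in the betamethasone and saline groups. The animals were newborn females of Cavia porcellus, 7 born to mothers given betamethasone, a synthetic glucocorticoid, and 7 born to mothers given saline, and the DNA was extracted from dried blood spots. Dosing was on gestational day 50/51, and methylation was read by reduced representation bisulfite sequencing, which enriches CpG-rich fragments and counts at each cytosine the reads that stayed unconverted, that is methylated. The table gives 1 pool of reads per group and no value per animal. None of the differences below could therefore be set against the spread between animals. Intervals at single positions cover counting error of reads only. Those of shares and medians cover the number of positions, clusters or pairs only. The authors selected the listed positions for a difference between the groups, and the mean level chose the members, so levels, sizes and directions are given as a description, with no test beyond the one run per position on the whole table.

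In mammalian genomes most CpG dinucleotides are methylated, and the exceptions are mainly CpG islands, dense stretches that often overlap promoters and are kept free of methylation. The enzymes DNMT3A and DNMT3B place new methyl groups, DNMT1 copies them to the new strand at replication, and TET enzymes oxidise them on the way to removal. Whole blood is a mixture of white cell types, each with its own methylation pattern, and the share of each type was not measured in these data. Bisulfite conversion that is not complete also leaves cytosines that read as methylated. The conversion rate was not given in the sources used here, so its part in levels near 0 was not tested. Positions are given by scaffold and coordinate as deposited, and no gene was assigned to them.

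Most of the 1346 positions were close to unmethylated in both pools. The median level was 1.64% after betamethasone (quartiles 0.508% and 5.37%) and 1.66% after saline (quartiles 0.549% and 5.17%). Of 240162 reads in the betamethasone pool 96.3% were unmethylated, and of 232794 reads in the saline pool 96.6%. Averaged over positions, the level was 3.98% in the betamethasone pool and 3.61% in the saline pool, which differ by 0.37 percentage points, while the median of the differences was 0.02 points (exact interval of the median -0.02 to 0.21). The pools thus had nearly the same typical level, and the higher mean came from the upper part of the class. The mean level was under 1% at 471 positions, from 1% to under 2% at 247, from 2% to under 5% at 274, from 5% to under 10% at 184 and from 10% to under 20% at 170. The lowest was on scaffold_320 at 124621, with 1 methylated read of 473 in the betamethasone pool and 0 of 409 in the saline pool, a count of 0 that allows a level of up to 0.733%.

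**Figure D1:**
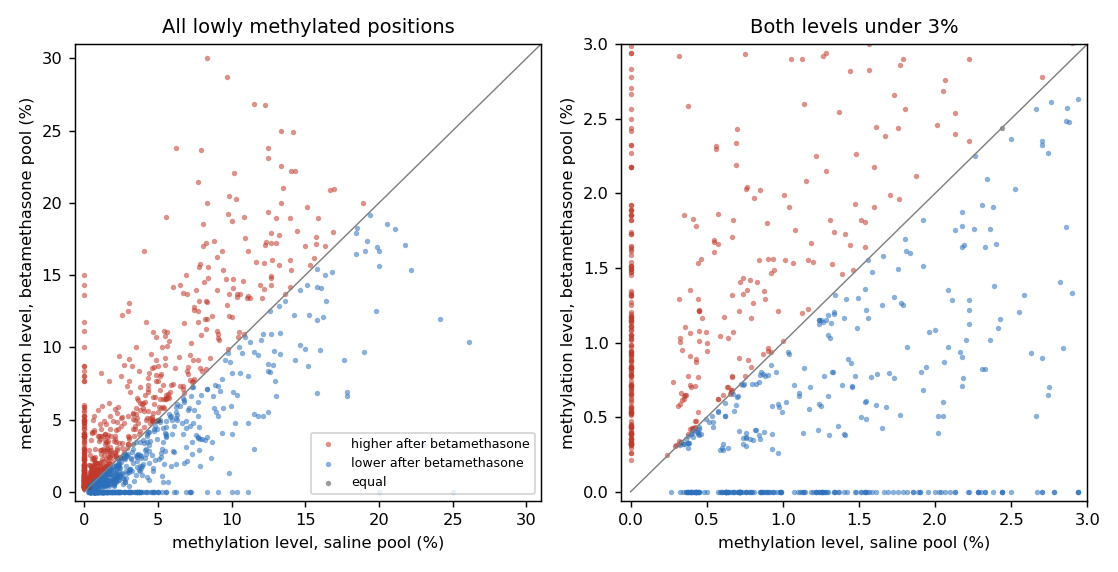
Methylation level in the saline pool (horizontal axis, %) against the betamethasone pool (vertical axis, %), 1 point per position, with the line of equal levels; the left panel holds all 1346 positions and the right panel those under 3% in both pools. The points crowd near 0 with a median of 1.66% in saline and 1.64% after betamethasone, and the rows of points on the axes are the positions with 0 methylated reads in 1 pool.

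These positions were read more deeply than the rest of the list. Median coverage was 186 reads after betamethasone (range 10 to 567) and 178 after saline (range 10 to 498), against 108 and 106 reads at the other 4671 listed positions. At least 50 reads in both pools were present at 1143 of the 1346. Outside scaffold_111, median betamethasone coverage was 100 reads at intermediate levels (20% to 80%) and 103 above 80%. Inside the class it followed no single order with the level: 227 reads under 1%, 140 from 2% to under 5% and 204 from 10% to under 20%. The part of depth in the small differences of the class was not tested. The rule has a bound at 20%: just inside it lay scaffold_159 at 645933 with a mean of 19.6% (18.2% after betamethasone, 21.1% after saline) and scaffold_144 at 2368720 with a mean of 19.5% (24.9% and 14.2%). Just outside it lay scaffold_117 at 1705443 with 20.2% (19.0% and 21.3%) and scaffold_65 at 9492664, also with 20.2% (24.4% and 16.1%).

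Differences between the pools were small and went both ways. Methylation was higher after betamethasone at 689 positions (51.2%), lower at 652 (48.4%) and equal at 5. Over the whole list 52.1% of positions were higher and 47.3% lower, so the split at low levels was close to that background. The median absolute difference was 1.15 points (exact interval of the median 1.08 to 1.26), against 2.44 points (2.36 to 2.56) over the whole list, and 75% of the positions differed by 2.78 points or less. At intermediate levels, from 20% to 80% outside scaffold_111, the median absolute difference was 5.99 points, and at levels above 80% it was 2.70 points. A level near 0 leaves little room for a lower value and has a small counting error, so sizes in points are not on an equal footing across the level range.

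The direction varied with the level inside the class. Under 1% the levels were the same on average, 0.523% after betamethasone and 0.520% after saline, with 231 positions higher and 239 lower. From 1% to under 2% fewer positions were higher than lower, 102 against 145, with means of 1.29% and 1.58%. From 2% to under 5% the counts were 145 and 127, and from 5% to under 10% they were 102 and 80. In the top band, from 10% to under 20%, 109 positions were higher and 61 lower, so that 64.1% of them were higher (exact interval 56.4 to 71.3). Levels in that band averaged 15.1% after betamethasone and 12.9% in saline and differed by 2.17 ± 6.83 points (SD over 170 positions on 59 scaffolds). Joining positions less than 1000 bp apart, so that neighbours on the same reads count once, gave 52 clusters higher and 31 lower in the top band, or 62.7% (51.3 to 73.0). In the band under 1% 54 clusters were higher and 59 lower, and from 1% to under 2% 44 were higher and 48 lower. The excess of lower positions from 1% to 2% was therefore small when counted by clusters. The lean toward higher levels continued above the bound: of the 94 listed positions with a mean of 20% to under 30%, 66 were higher. The bands were drawn after the values had been seen, and the intervals treat positions of the same 2 pools as independent, which they are not.

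**Figure D2:**
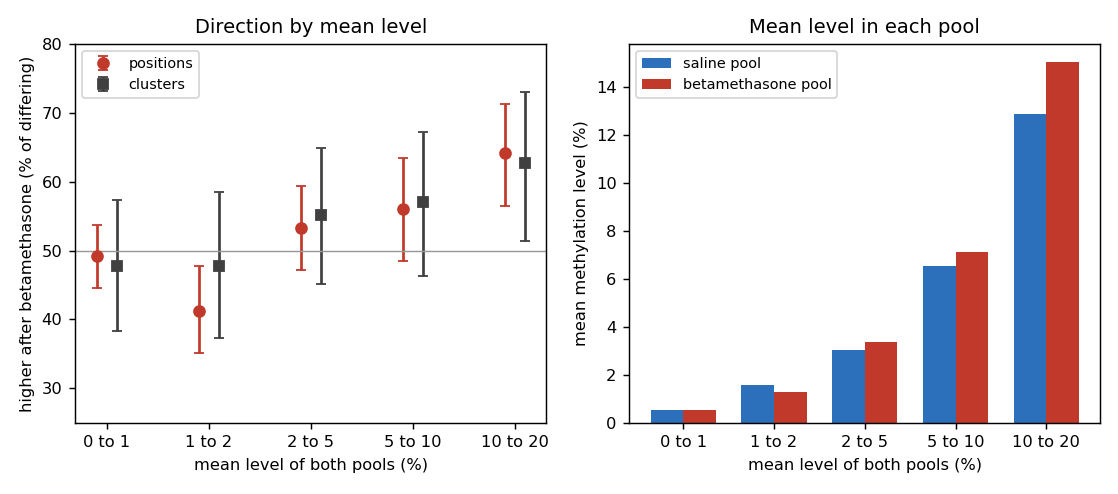
Left, share of positions (circles) and of clusters (squares) that were higher after betamethasone, in percent of those with a difference, by the mean level of both pools; bars are exact 95% intervals over positions or clusters and the line marks 50%. Right, mean level in each pool (%) by the same bands; the pools coincide under 1% and stand at 12.9% for saline and 15.1% for betamethasone in the band from 10% to 20%.

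Positions with no methylated read at all in 1 pool were common. In the saline pool 219 of the 1346 positions (16.3%, exact interval 14.3 to 18.4) had 0 methylated reads, and in the betamethasone pool 224 (16.6%, interval 14.7 to 18.7). Over the whole list the shares were 5.07% in saline and 4.74% in betamethasone. No listed position had 0 in both pools. At levels from 20% upward outside scaffold_111 no position had 0 in either pool, and the rule on levels leaves little room for one. The coverage behind a 0 had a median of 137 saline reads and of 126 betamethasone reads, counts that allow levels of up to 2.19% and 2.38%. Most of these positions rested on very few reads: where saline had 0, the betamethasone pool had a single methylated read at 133 positions, and where betamethasone had 0, the saline pool had a single one at 139. The level in the other pool had a median of 1.14% where saline was 0 and of 1.26% where betamethasone was 0. Thus the state without methylated reads was equally frequent in both pools and usually differed from the other pool by 1 or 2 reads.

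The counts of the pools were less alike in the tail of that distribution. Where saline had 0, 4 or more methylated betamethasone reads were seen at 5 positions in 5 clusters. Where betamethasone had 0, 4 or more methylated saline reads were seen at 20 positions in 14 clusters on 13 scaffolds. Among the 224 positions at 0 in betamethasone, Fisher's exact test of the pooled reads gave an unadjusted p under 0.05 at 10 (4.46%), and among the 219 at 0 in saline at 2 (0.913%). Both shares were under the 6.02% of the whole list, but the comparison is uneven. At 133 of the 219 and 139 of the 224 the other pool had a single methylated read, with which this test can hardly give a low p. The first of 2 p-values in the authors' deposited table was under 0.05 at 25 of the 224 and at 9 of the 219. That is a larger share among the 224 and a smaller share among the 219 than the 6.20% of the whole list. After Benjamini-Hochberg adjustment over the list none of the 12 positions with an unadjusted Fisher's exact p under 0.05 passed (lowest adjusted p = 0.26 by Fisher's exact test in either set). Part of the count came from a single stretch: on scaffold_101 from 465787 to 465813, 6 of the 20 positions lay within 27 bp. Each had 0 of 241 betamethasone reads methylated, which allows a level of up to 1.24%, against 5 to 7 of 262 or 263 saline reads, that is 1.9% to 2.67%. Their coverage was the same or differed by 1 read, so they may share most of their reads and are not counted as 6 separate observations. A seventh listed position of the same 27 bp, at 465801, hardly differed, with 2 of 241 betamethasone reads (0.830%) and 3 of 263 saline reads (1.14%) methylated. The whole cluster held 18 positions over 201 bp, 14 lower and 4 higher, with a mean of 0.441% after betamethasone and 1.85% after saline. Elsewhere, scaffold_50 at 10640938 had 0 methylated reads after betamethasone, at a depth that allows a level of up to 2.70%, and 10 of 138 (7.25%) in saline, a difference of -7.25 points (Newcombe interval -12.8 to -2.57). On scaffold_76 at 2193452 it was 0 of 281 reads against 8 of 254 (3.15%). The clearest case of the opposite kind was scaffold_14 at 29849362, with 7 methylated reads of 116 (6.03%) after betamethasone and 0 of 151 in saline, a difference of 6.03 points (2.08 to 11.9). These 3 positions and the stretch on scaffold_101 were chosen after their values had been seen.

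**Figure D3:**
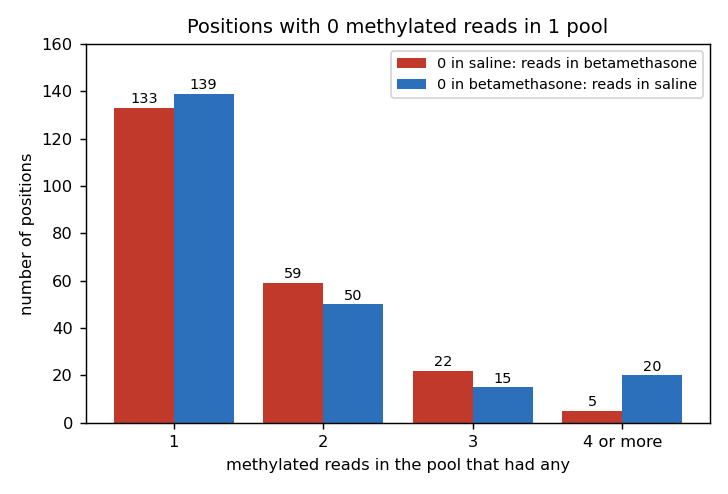
Number of positions with 0 methylated reads in the saline pool (red) or in the betamethasone pool (blue), by the number of methylated reads in the other pool. With 1 read the counts are 133 and 139, and with 4 or more they are 5 and 20.

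Gain from a near-unmethylated state was looked for directly and set beside its mirror image. Of 515 positions under 1% in saline, 27 (5.24%) had 5% or more after betamethasone, in 16 clusters. Of 517 positions under 1% after betamethasone, 21 (4.06%) had 5% or more in saline, also in 16 clusters. With a limit of 10% in the other pool the counts were 6 and 5, and with 3% they were 59 and 54. Gain and loss were thus about equally frequent at each limit. Both kinds rested on shallow positions: the 27 gained positions had a median of 23 betamethasone and 20 saline reads, and only 4 of them had 50 reads or more in both pools, as did 3 of the 21 in the other direction. Both pools were under 1% at 321 positions. Among positions with 0 in 1 pool and at least 20 reads in both, the largest difference was on scaffold_72 at 7769426, with 6 methylated reads of 44 (13.6%) after betamethasone and 0 of 38 in saline. The count of 0 allows a saline level of up to 7.89%, and the difference of 13.6 points had an interval of 1.95 to 26.7. Next came scaffold_119 at 321914, with 0 of 25 betamethasone reads and 3 of 29 saline reads, and scaffold_28 at 26696854, with 2 of 20 betamethasone reads and 0 of 20 saline reads. The intervals of these differences included 0, as did those of the remaining 2 named by this rule, on scaffold_25 at 26546468 (-9.09 points) and on scaffold_14 at 29849776 (8.70 points).

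Large differences were rare at low levels. The pools differed by 10 points or more at 34 of the 1346 positions (2.53%), against 10.3% of the whole list. Of the 34, 24 were higher after betamethasone, and of the 622 in the whole list 360 were. The 34 lay in 29 clusters on 24 scaffolds, and their median coverage was only 30.5 betamethasone and 27 saline reads. With at least 50 reads in both pools 8 remained, 7 higher and 1 lower. In the whole list 195 remained at that depth, 124 of them higher. The 5 largest positive differences at that depth began with scaffold_10 at 40025284, with 62 methylated reads of 216 (28.7%) after betamethasone and 20 of 206 (9.71%) in saline, a difference of 19.0 points (11.6 to 26.2). On scaffold_72 at 7719272 the level was 23.6% of 55 reads against 7.94% of 63, a difference of 15.7 points (2.55 to 29.2). On scaffold_1 at 35782698 it was 22.1% of 317 reads against 10.2% of 305, a difference of 11.9 points (6.17 to 17.6). The other two were scaffold_144 at 2368720, at 10.7 points (4.03 to 17.3), and scaffold_1 at 59839912, at 10.6 points (4.01 to 17.2). All 5 had a level of 7.94% to 14.2% in saline, so none started from a fully unmethylated state.

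The largest negative difference with at least 50 reads was on scaffold_76 at 3527521, with 29 methylated reads of 243 (11.9%) after betamethasone and 65 of 269 (24.2%) in saline, a difference of -12.2 points (-18.7 to -5.58). It did not pass Fisher's exact test after adjustment over the list (adjusted p = 0.077). Scaffold 44 at 3854000 followed with 9.68% against 19.0%, a difference of -9.29 points (-16.6 to -2.05). The other 3 were scaffold_38 at 16374541 (-8.60 points), scaffold_429 at 81497 (-8.52 points, 1 of 76 against 6 of 61 reads) and scaffold_26 at 2894362 (-7.30 points). Without a depth limit the extremes were -25.0 points on scaffold_68 at 8453453, from 0 of 13 against 7 of 28 reads, and 21.7 points on scaffold_86 at 2918648, from 6 of 20 against 2 of 24 reads. Both intervals included 0.

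Methylated and unmethylated reads of the pools were compared at all 6017 listed positions by Fisher's exact test, with Benjamini-Hochberg adjustment. It compares 2 pools of reads, not animals, and the positions had already been chosen by the authors from the same reads. An adjusted p under 0.05 was found at 2 of the 1346 positions (0.149%), against 0.399% of the whole list. These were scaffold_10 at 40025284 (adjusted p = 0.00064, Fisher's exact test) and scaffold_1 at 35782698 (adjusted p = 0.019, Fisher's exact test), both higher after betamethasone. At an unadjusted p under 0.05 there were 60 positions (4.46%), 40 higher and 20 lower, against 6.02% of the whole list. The 362 such positions of the whole list leaned the same way, 227 higher and 135 lower. The first of 2 p-values in the authors' deposited table was under 0.05 at 75 of the 1346 positions (5.57%), 40 higher and 35 lower. In the whole list it was under 0.05 at 6.20%, 215 higher and 158 lower. At 45 positions that p-value of the authors' deposited table and the unadjusted Fisher's exact p were both under 0.05. These shares were near or under the background for the whole list. At intermediate levels the adjusted test called 19 of 835 positions, and above 80% 2 of 2557.

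The positions sat close together, as did those of the whole list. Another low position lay less than 1000 bp away for 1282 of them (95.2%, exact interval 94.0 to 96.3), less than 100 bp away for 1254 and less than 10 bp away for 871. Joined at under 1000 bp they formed 236 clusters, of which 64 were single positions and 98 held 5 or more positions. Those 98 clusters held 1067 positions (79.3%) and had a median span of 140.5 bp, with a range of 15 to 1425 bp. In the whole list, joined in the same way, 138 of 820 clusters were single positions, and clusters of 5 or more held 83.4% of positions. The list was joined across all levels and with scaffold_111, where clusters of 5 or more held 98.4% of positions. Its share is therefore not on an equal footing with that of the low positions. Joined within its own class, the share was 42.5% at intermediate levels and 70.9% above the intermediate range, both below that of the low positions. Of the 236 clusters 131 had a higher mean level after betamethasone and 105 a lower one, or 55.5% higher (exact interval 48.9 to 62.0), against 56.2% (52.8 to 59.7) of all 820 clusters of the list. Mean differences shrank as clusters grew. The median absolute cluster difference was 2.47 points for single positions, 1.26 points for 2 to 4 positions, 0.76 points for 5 to 9, 0.55 points for 10 to 19 and 0.26 points for 20 to 40. A mean over more positions varies less by averaging alone, and the part of this in the trend was not tested. The 41 clusters of 10 or more positions had 22 higher and 19 lower, with a median absolute difference of 0.36 points. A mean difference of 1 point or more was found in 11 of them, 6 higher and 5 lower. The largest was on scaffold_72 from 7910809 to 7910989, where 10 of 13 positions were higher and the mean was 9.79% after betamethasone against 6.49% in saline, a difference of 3.30 points. Next came scaffold_10 from 40018655 to 40018702, with a mean of 9.24% after betamethasone and 7.12% in saline over 11 positions, 7 of them higher. The lowest was on scaffold_68 from 8452904 to 8453463, where 14 of 23 positions were lower, at 1.54% against 3.26%, a difference of -1.72 points. That mean leaned on 1 shallow position, 8453453, which differed by -25.0 points from 0 of 13 betamethasone reads against 7 of 28 saline reads. These 3 clusters were chosen after their values had been seen, and none held a position past the adjusted Fisher's exact test.

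**Figure D4:**
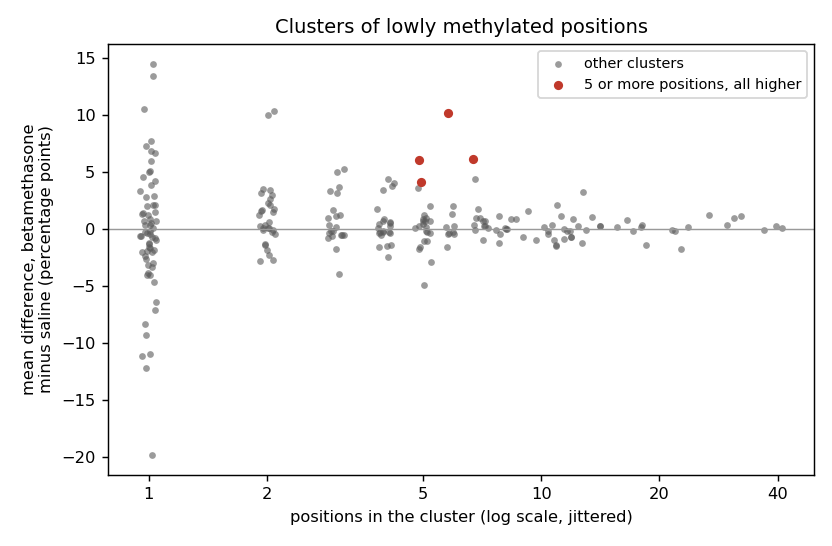
Mean difference of each of the 236 clusters (vertical axis, betamethasone minus saline, percentage points) against its number of positions (log axis, points jittered); the 4 clusters of 5 or more positions that were higher throughout are in red. Single positions spread from -19.9 to 14.5 points, whereas the clusters of 20 to 40 positions stay close to 0.

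The cluster with the most positions was on scaffold_14 from 29849013 to 29849777, with 40 positions in 765 bp. Its mean level was 2.86% after betamethasone and 2.72% after saline, with 16 positions higher and 24 lower, and 0 methylated reads were counted at 11 positions after betamethasone and at 12 in saline. The next was on scaffold_85 from 393478 to 394367, with 39 positions at 4.31% and 4.05%, of which 18 were higher and 21 lower. The third was on scaffold_28 from 24911308 to 24911836, with 37 positions at 0.584% and 0.675%, of which 15 were higher and 21 lower. Levels in these 3 clusters stayed at or below 15.0%, 14.8% and 5.66% in either pool. The low positions of these stretches were nearly free of methylation in both pools, but methylated positions were listed among or beside them and were left out by the rule on levels. On scaffold_14 there were 3 such positions, averaging 75.1% after betamethasone and 70.9% in saline, on scaffold_85 there were 4, at 84.7% and 83.2%, and on scaffold_28 there were 5, at 54.8% and 53.0%.

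Positions went the same way throughout in 4 of the 98 clusters of 5 or more positions, and all 4 were higher after betamethasone. In the whole list 22 of 381 such clusters went one way, 16 higher and 6 lower. The one with the largest mean difference was on scaffold_10 from 40025233 to 40025351, where all 6 positions had a higher level, with a mean of 19.5% against 9.31%, a difference of 10.2 ± 4.79 points (SD over positions). Levels there were 14.0% to 28.7% after betamethasone and 8.04% to 10.3% in saline, so the levels did not overlap, but some of their intervals did. At 40025233 the exact interval was 8.48 to 21.2 after betamethasone and 4.89 to 14.9 in saline. At 40025284 the intervals were apart, 22.8 to 35.2 against 6.03 to 14.6. Of the 6 first p-values of this cluster in the authors' deposited table, 4 were under 0.05. The 3 other listed positions of this neighbourhood, at intermediate levels, were also higher, at 32.6% against 15.2%.

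The cluster on scaffold_1 from 35782698 to 35782712 had 7 of 7 positions higher within 15 bp, at 16.6% against 10.4%, a difference of 6.17 ± 3.44 points (SD over positions) with 196 to 317 reads per position and pool. The levels ran from 4.78% to 22.1% after betamethasone and from 2.67% to 14.4% in saline, and the lowest in both pools was at the last position. A second cluster of scaffold_1, from 59839863 to 59839931, had 5 of 5 positions higher, at 12.4% against 6.30%, a difference of 6.07 ± 3.62 points (SD over positions). Its difference was smallest at the last position, with 6.42% against 5.50%. The cluster on scaffold_61, from 8584914 to 8585022, had 5 of 5 positions higher, at 9.81% against 5.70%, and the differences were even, 4.11 ± 0.87 points (SD over positions). The 6 further listed positions of that neighbourhood, 5 intermediate and 1 above 80%, were all higher as well, at 53.3% against 48.4%. At both clusters on scaffold_1 no other class of listed position lay within 1000 bp. Across the 4 clusters the saline mean lay between 5.70% and 10.4%, above the 3.61% of the class. Single positions were lower in saline, down to 0.943% on scaffold_61 at 8584917. That position had 1 of 106 saline reads and 7 of 124 betamethasone reads (5.65%) methylated. It thus met the limits of under 1% in saline and 5% or more after betamethasone. First p-values of the authors' deposited table were under 0.05 at 2 of 7 and at 3 of 5 positions in the clusters of scaffold_1. On scaffold_61 they were under 0.05 at 0 of 5. Among the 23 positions of the 4 clusters the adjusted Fisher's exact test called the 2 already named and no other. In each of the 4 clusters some positions had the same or nearly the same coverage in both pools, so they may share most of their reads. In the first cluster of scaffold_1, betamethasone coverage was either 314 to 317 or 205 to 207 reads. The positions of a cluster are therefore not counted as separate observations, and the SD over positions is not a spread of such observations.

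**Figure D5:**
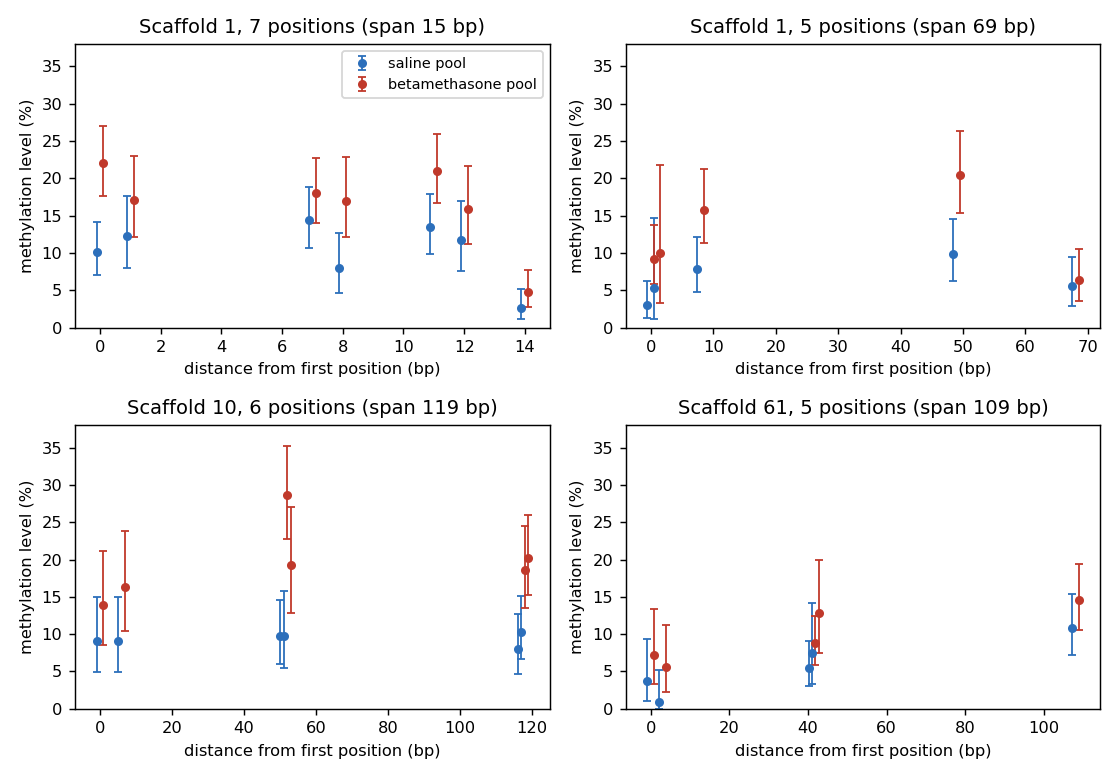
Methylation level (%) with exact 95% intervals in the saline pool (blue) and the betamethasone pool (red) at each position of the 4 clusters that were higher throughout, by distance from the first position (bp); points are shifted slightly sideways. On scaffold_10 the levels are 14.0% to 28.7% after betamethasone and 8.04% to 10.3% in saline, while on scaffold_61 the pools differ by 3.28 to 5.32 points.

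Neighbours resembled each other in level more than in difference. Among 220 consecutive low positions 1 bp apart, which may be the opposite strands of 1 CpG although the bases were not read, saline levels correlated with r = 0.80 and betamethasone levels with r = 0.83, but the differences only with r = 0.24. The direction was the same in 116 of the 219 pairs with differences other than 0 (53.0%, exact interval 46.1 to 59.7). Over all 1104 pairs of consecutive low positions under 1000 bp apart it was the same in 53.7% (50.7 to 56.7), against 53.9% of 5132 such pairs in the whole list and 63.7% of 502 pairs at intermediate levels. These correlations run over pairs of positions that share animals, and pairs further than 1 bp apart can share reads. Coverage was identical in both pools for 143 of 1110 consecutive pairs of low positions. In the authors' deposited table consecutive low positions under 1000 bp apart had the same second p-value in 72.4% of pairs, against 65.6% in the whole list, and the 1346 positions shared 482 distinct second p-values. Many positions of a cluster thus carried a value that did not distinguish them from their neighbours, and no source used here says how it was computed. The median false discovery rate in the authors' deposited table was 0.012 at low positions and 0.0042 over the whole list.

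The low positions were spread over many scaffolds, but over fewer than the other classes outside scaffold_111. They lay on 105 of the 151 scaffolds with listed positions other than scaffold_111, with a median of 7 positions per scaffold. The 835 intermediate positions lay on 115 scaffolds, and the 2557 above the intermediate range on 138. Fewer than 5 low positions were found on 33 scaffolds and a single one on 9. The 10 scaffolds with the most held 466 positions (34.6%). Scaffold 25 led with 62 positions in 12 clusters, 31 higher and 31 lower, at 2.88% after betamethasone and 3.54% in saline. Scaffold 72 followed with 53 positions in 4 clusters, 35 higher and 18 lower, at 5.46% and 3.89%, and 93.0% of all its listed positions were low. Scaffold 20 had 52 positions in 2 clusters, 25 higher and 27 lower, at 1.67% and 1.37%. On scaffold_85, by contrast, all 39 low positions formed a single cluster, as happened on 50 of the 105 scaffolds. Higher positions outnumbered lower ones on 49 scaffolds, lower ones outnumbered higher ones on 42, and the counts were even on 14. By the mean difference of their low positions, 67 scaffolds were higher after betamethasone and 38 lower, so the tally by scaffold depended on whether positions were counted or averaged. No single scaffold held more than 4.61% of the positions.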

How the data were processed

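Reduced representation bisulfite sequencing was done on blood DNA of 14 newborn guinea pigs, 7 per group. Reads were handled with Bismark 0.16.0, Bowtie2 2.3.4.3, SAMtools 1.9 and Trim Galore, per the submitters' processing notes, which name no settings. Build, differential test and filters: not given in the sources used here. For each position and group the authors deposited coverage (the number of reads, a signal) and the count of methylated reads. The authors' fraction (beta value) is methylated reads divided by coverage, and their difference is case minus control. The authors' p-values and q-values (false discovery rates) are as deposited. Saline is the control in the series design, so case was read as betamethasone.

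Levels were recomputed from the counts. The class is every position outside scaffold_111 with a mean level under 20%. Fisher's exact test (two-sided) was run at all 6017 positions with Benjamini-Hochberg adjustment, after a check on simulated data. Intervals are 95%, exact (Clopper-Pearson) for shares, order-statistic for medians and Newcombe's for differences. A count of 0 allows up to 3 reads. Members and lists were chosen with earlier results of these data known. Positions named are those past the adjusted test, the 5 largest differences each way at 50 reads or more, the 5 largest with 0 in 1 pool at 20 reads or more, one-way clusters of 5 or more positions, the 3 clusters with the most positions, and 2 on each side of the bound. Alternatives were other level bounds, read minimums, false discovery rates, distances and adjustments. Software was scipy 1.17.1, statsmodels 0.14.6, pandas 2.3.3 and numpy 2.4.6 in Python 3.11.15, with matplotlib 3.10.9 for plots.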

Additional observations from a re-analysis of the deposited data

How the results depend on the processing

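Of 91 recomputed values 63 stayed within the interval of the reported value, or within 1.5 times for a count, and 28 moved; the cause was not tested unless named. The share of higher clusters stayed within its interval in 11 of 11 alternatives, from 50.2% with a mean level under 10% to 59.0% with a false discovery rate limit of 0.01. With a mean level under 10% the median absolute difference was 0.996 points, 18.6% and 18.9% of positions had 0 methylated saline and betamethasone reads, 10 positions differed by 10 points or more, and the adjusted Fisher's exact test called 0 (35 at an unadjusted p under 0.05). With a bound of 25% 4 passed that test, from more positions. With at least 50 reads the median absolute difference was 0.963 points and 8 positions differed by 10 points or more, 7 of them higher. With that rate limit of 0.01 fewer positions were left, 627 (335 higher, 289 lower), with a median of 1.29 points, 17 large differences, 42 first p-values under 0.05 and 1 position past Fisher's exact test. With 0.001 these were 294 (142 higher, 149 lower), 1.38 points, 11, 21 and 1, and 8.84% and 13.6% of positions had 0 saline and betamethasone reads. Adjusted over the 2930000 tests that the deposited rates imply, 0 positions passed Fisher's exact test, and unadjusted 60 did. Within 100 bp 93.2% had another low position. The share higher from 10% to 20% kept within its interval in 5 of 5 alternatives chosen after seeing the data, and was 60.4% without the 4 one-way clusters. No paired analysis was possible because reads of each group's animals are pooled in the values used here, so animals could not be left out in turn either. Depth limits single positions: at the lowest coverage of 10 reads a count of 0 allows a level of up to 30.0%.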

Other observations

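Clusters of low positions differed in what else was listed beside them. Of the 236 clusters 126 had only low positions listed within 1000 bp, and these held 726 of the 1346 positions at a median mean level of 1.14%. Their directions were even, with 61 clusters higher after betamethasone and 65 lower. A further 52 clusters bordered listed positions of intermediate level but none above 80%, and held 303 low positions with a median of 3.85%. Of these, 38 were higher and 14 lower, or 73.1% higher (exact interval 59.0 to 84.4), and the mean level of their low positions was 6.37% after betamethasone and 5.54% in saline. The 37 clusters beside both intermediate and high positions had 20 higher and 17 lower, and the 21 beside high positions alone had 12 higher and 9 lower. The grouping was made after the data were seen, the difference between groups was not tested, and all clusters come from the same 2 pools.

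On scaffold_111, which is outside the class, 86 of 1279 listed positions (6.72%) had 0 methylated reads in saline and 61 (4.77%) after betamethasone. The other pool had 4 or more methylated reads at 3 and at 4 of them.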
